A study of Mus musculus with 30 samples.

Results

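Inversion of CBE2 was compared with the wild-type (WT) sequence in bone marrow pro-B cells by sequencing the rearrangements of the immunoglobulin heavy-chain (Igh) locus. The 6 libraries were chosen by their labels, 3 CBE2inv and 3 WT, out of 30 libraries in the series. In CBE2inv mice CBE2 is inverted on both alleles (genotype CBE2inv/inv), and in WT mice it is not. Both groups were 129SV mice, and their pro-B cells had been sorted from bone marrow as B220+ IgM- CD43+. CBE2mut, the genotype in which the same element is mutated on both alleles, is set beside CBE2inv where the form of the change matters (n = 3). Genotype rests on the labels, because the reads start at JH4 and the state of CBE2 was not read here. The labels do not say whether the libraries of a group came from separate mice, so p-values measure the spread between libraries. In the limma fits this spread was estimated over the 18 bone marrow libraries, of which the 6 compared are a part. The fits also draw on the spread of the other segments or zones tested. Those 18 also include libraries with CBE1, the partner of CBE2, mutated (CBE1mut) or inverted (CBE1inv), and with both elements mutated (CBE12mut).

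A heavy-chain gene is assembled in developing B cells in order: RAG cuts and joins a D segment to a JH segment, then a V segment to that DJ join. Cohesin carries chromatin past RAG bound at the JH end of the locus, and a CTCF-binding element (CBE) halts this movement depending on its orientation. IGCR1, the intergenic control region between the V and D segments, carries the CBE pair CBE1 and CBE2, and is known for keeping the V segments nearest to D from joining early.

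HTGTS-V(D)J-seq amplifies genomic DNA outward from a primer at JH4 and reads what is joined there. Each read therefore holds a DJ join (here a D join), a completed VDJ join (a V join) or another junction. A level below is a number of junctions per 100000 junctions of the library, and a share is a percent of the V joins or of the D joins of the library. The CBE2inv libraries held 25990, 37480 and 15877 junctions and the WT libraries 79560, 57970 and 89905. V and D joins made up 93.7%, 82.9% and 92.2% of the CBE2inv junctions, against 97.3%, 96.7% and 96.6% of the WT junctions. Reads identical to another read of the library made up 29.1% to 34.0% in CBE2inv and 11.9% to 15.1% in WT. The read names put CBE2inv and CBE2mut on a single sequencing run and WT on another, so run and genotype cannot be told apart between CBE2inv and WT. The comparison of CBE2inv with CBE2mut lies within a run.

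The D segments on which the results turn are shown first, each with its coding bases in capitals and the start of the recombination signal on its JH side in lower case. Ighd4-1 lies nearest to JH (chr12:114668711-114668749), Ighd3-2 follows it (chr12:114686397-114686440), and Ighd1-1 lies at the far end of the main D group, next to IGCR1 (chr12:114720353-114720403). All are read on the minus strand of mm9, 5′ to 3′, from the C57BL/6 genome, whereas the mice were 129SV.
Ighd4-1: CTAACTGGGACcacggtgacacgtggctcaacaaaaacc
Ighd3-2: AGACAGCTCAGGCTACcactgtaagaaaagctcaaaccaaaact
Ighd1-1: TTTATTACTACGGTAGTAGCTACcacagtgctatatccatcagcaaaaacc
The coding bases of Ighd4-1 and Ighd1-1 were the same in the 129SV reads. Those of Ighd3-2 differed by the substitution G10A, with the 129SV base first and positions counted from 1 at the 5′ end of the D. The flank of that D matched mm9 Ighd3-2 at 89.1% identity, and its name rests on this match and on its place next to Ighd4-1.

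Ighd1-1, the D segment next to IGCR1, fell, with the smallest adjusted p of all segments. Its level was 5964, 4397 and 4711 junctions per 100000 in CBE2inv, against 12770, 14252 and 15117 in WT. The highest CBE2inv library lay below the lowest WT library. The mean was 5024 ± 829 in CBE2inv and 14046 ± 1187 in WT (SD, n = 3 each). The log2 difference was -1.50 (SE 0.12), with a Benjamini-Hochberg adjusted p of 3.21e-14 in limma voom over all segments. Tested instead as 1 of 11 zones of the locus and genome, it was -1.49 (SE 0.16), with a larger limma adjusted p of 3.06e-06. On this scale 8 of 167 tested segments (4.79%) passed the test at an adjusted p of 0.05, 4 higher in CBE2inv (2.4%) and 4 lower (2.4%).

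Within D joins the share of Ighd1-1 fell too. It was 10.7%, 10.6% and 9.10% in CBE2inv, against 20.8%, 22.9% and 22.6% in WT. The means were 10.1% ± 0.904 in CBE2inv and 22.1% ± 1.11 in WT (SD, n = 3 each), a log2 difference of -1.09 (SE 0.08, limma voom adjusted p = 8.78e-19). Permuting the 6 libraries gave an exact two-sided p of 0.1, the smallest that 3 against 3 allows, and 0.18 after adjustment over 9 single values. The fall held under every alternative run, with log2 differences between -1.15 and -0.85 within D joins. CBE2mut libraries had 12.4%, 13.5% and 12.6%, all above the CBE2inv libraries and below the WT libraries. On the scale of all junctions, Ighd1-1 did not pass the test between CBE2inv and CBE2mut (log2 -0.32, limma voom adjusted p = 0.223).

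At the JH end of the D group the share was higher. Ighd4-1, the D nearest to JH, made up 7.54%, 8.70% and 9.36% of D joins in CBE2inv, against 5.82%, 5.36% and 5.68% in WT. Ighd3-2, the next D, made up 4.94%, 5.10% and 5.91% in CBE2inv, against 2.23%, 1.86% and 2.20% in WT. Neither segment's groups overlapped, and both rose in the limma voom fit within D joins. The log2 difference was 0.55 for Ighd4-1 (SE 0.08, adjusted p = 1.79e-07) and 1.27 for Ighd3-2 (SE 0.13, adjusted p = 3.40e-13). Counting each distinct junction once, an alternative chosen after seeing the data, left the call of Ighd3-2 in place with a log2 difference of 0.60.

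Of 25 D segments tested within D joins, 5 passed (20%), 4 of them higher in CBE2inv (16%) and 1 lower (4%). Over all 25 the median log2 difference was 0.09, and in 8 of them (32%) the groups did not overlap. The remaining D segments that rose lie in the middle of the group, and their names give positions on chromosome 12 of the authors' alignment target. The Ighd1-type segment at 114719358 made up 9.62%, 9.42% and 8.30% in CBE2inv, against 6.03%, 7.12% and 7.23% in WT (log2 0.46, limma voom adjusted p = 2.48e-05). The Ighd2-type segment at 114714725 made up 10.97%, 11.2% and 10.2% in CBE2inv, against 8.69%, 9.13% and 8.71% in WT (log2 0.30, limma voom adjusted p = 0.00106). That last call was lost with median-of-ratios size factors (adjusted p = 0.0604). Shares within D joins have a fixed sum, so a lower share of Ighd1-1 by itself raises the other shares. Over all junctions neither the Ighd1-type nor this Ighd2-type segment passed. In the alternatives on that scale, the log2 difference ran from -0.098 to 0.19 for the former and from -0.21 to 0.041 for the latter. The Ighd2 subfamily, which supplies most middle D joins, had 8 members tested, 1 higher and 0 lower, with a median log2 difference of 0.05. The Ighd5 segments, 10 of 11 tested, had 0 calls, and no CBE2inv or WT library gave any of them over 0.226% of D joins. The D segment of Ighd3 type that lies between the main group and V made up 0.00689%, 0% and 0.0122% of D joins in CBE2inv, against 0.0185%, 0% and 0% in WT, and did not pass the test.

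**Figure D1:**
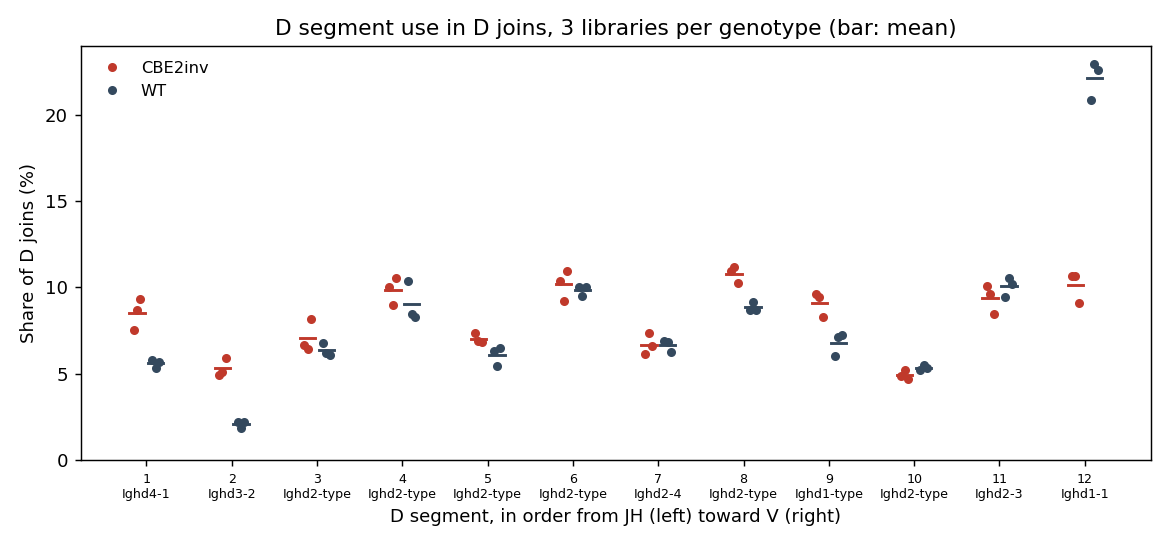
Share of D joins (percent, vertical axis) for the D segments in their order from JH (horizontal axis), with 1 point per library and a bar at each group's mean, CBE2inv and WT. Ighd4-1 and Ighd3-2 at the left are higher in the 3 CBE2inv libraries, and Ighd1-1 at the right is lower, at 9.10% to 10.7% against 20.8% to 22.9% in WT.

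On the scale of all junctions the pattern of calls differed. Ighd3-2 rose, at 2759, 2105 and 3061 junctions per 100000 in CBE2inv, against 1368, 1154 and 1476 in WT (log2 0.91, SE 0.18, limma voom adjusted p = 0.00057). That call was lost with median-of-ratios size factors (adjusted p = 0.0992) and with distinct junctions (0.0961). Ighd4-1 overlapped between the groups and did not pass (log2 0.18, limma voom adjusted p = 0.504). Besides Ighd1-1, 3 D segments near it fell: Ighd2-3, the Ighd2-type segment at 114723458 and Ighd6-1, which is annotated as a pseudogene. Their log2 differences were -0.48, -0.50 and -1.13, with limma voom adjusted p-values of 0.00586, 0.0255 and 0.0255. Each of these 3 calls was lost with distinct junctions, with V plus D joins as the library size and without CBE2inv replicate 2. None of the 3 passed the test within D joins.

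A completed V join keeps the D segment it used, so D use could also be read in reads other than the D joins. A D was counted when exactly 1 D segment matched a run of at least 8 bases between V and JH4. This gave 5411, 8331 and 3432 V joins in CBE2inv and 16658, 11770 and 15666 in WT. Ighd1-1 was the D in 12.05%, 10.7% and 10.7% of them in CBE2inv, against 23.5%, 22.8% and 23.1% in WT. The means were 11.1% ± 0.798 in CBE2inv and 23.1% ± 0.323 in WT (SD, n = 3 each), with no overlap. The exact permutation p was 0.1, the floor of the design, and 0.18 adjusted. With a run of 10 bases the means were 12.8% in CBE2inv and 26.3% in WT. CBE2mut libraries had 12.2%, 10.2% and 11.8%, a range that overlaps that of CBE2inv.

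The lower share of Ighd1-1 was present on near and far V segments alike. In joins of the 10 V segments nearest to D, Ighd1-1 was the D in 8.29%, 6.05% and 8.30% in CBE2inv, against 15.5%, 13.4% and 13.9% in WT. In joins of all other V segments it was the D in 14.5%, 12.8% and 11.8% in CBE2inv, against 26.1%, 26.7% and 26.7% in WT. Within either genotype the share was thus lower on the nearest V segments than on the others, in each of the 6 libraries.

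The D segments at the JH end did not show the same separation inside V joins. Ighd4-1 was read in 2.61%, 3.31% and 4.87% in CBE2inv, against 3.15%, 2.65% and 2.27% in WT. Ighd3-2 was read in 1.72%, 2.24% and 1.66% in CBE2inv, against 1.33%, 1.08% and 2.06% in WT. Both pairs of ranges overlapped, and Ighd4-1 is the shortest D, with 11 coding bases. A pair of Ighd2 segments with identical coding bases, Ighd2-4 and the Ighd2-type segment at 114700407, was read in 19.4%, 20.2% and 19.3% in CBE2inv, against 16.8%, 15.6% and 16.0% in WT, without overlap. V joins with exactly 1 D read were 53.4% to 55.0% of V joins in CBE2inv and 58.2% to 59.0% in WT, and the mean insert between V and JH4 was 16.5 bases in each CBE2inv library and 17.1 to 17.2 bases in the WT libraries.

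**Figure D2:**
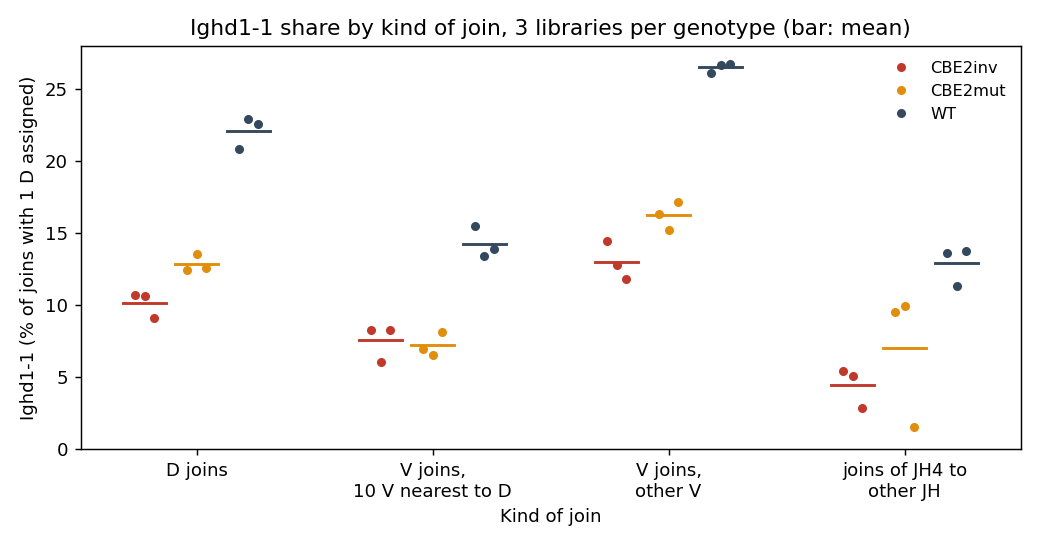
Ighd1-1 as a percent of D segments (vertical axis) in D joins, in V joins of the nearest 10 and of all other V segments, and in joins of JH4 to another JH, with 1 point per library and a bar at each group's mean, for CBE2inv, CBE2mut and WT. The 3 CBE2inv libraries lie below the 3 WT libraries in each kind of join.

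V segments at the D end were the second set with higher levels in CBE2inv. The 3 that rose are shown with the last bases of their coding sequence, from the conserved cysteine codon, followed by the recombination signal, whose heptamer is in capitals. They are Ighv5-2 (chr12:114816676-114816725), also known as VH81X, Ighv2-2 (chr12:114826439-114826488) and Ighv5-4 (chr12:114835618-114835667), all on the minus strand of mm9.
Ighv5-2: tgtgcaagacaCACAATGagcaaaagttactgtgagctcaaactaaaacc
Ighv2-2: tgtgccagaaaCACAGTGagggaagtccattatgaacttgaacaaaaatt
Ighv5-4: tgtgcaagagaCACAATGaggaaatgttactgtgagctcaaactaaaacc
Ighv5-2 and Ighv5-4, of one family, share a heptamer with each other and not with Ighv2-2.

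Ighv5-2, the first functional V segment from D, rose to 6445, 4981 and 4352 junctions per 100000 in CBE2inv, against 3526, 3923 and 3315 in WT. Ighv2-2, the next V, rose to 3486, 3090 and 3143 in CBE2inv, against 1933, 2268 and 1839 in WT. Ighv5-4 rose to 2012, 1801 and 1701 in CBE2inv, against 1048, 1389 and 1039 in WT. For each of these 3 segments the lowest CBE2inv library was above the highest WT library. The log2 differences were 0.57 (SE 0.12) for Ighv5-2, 0.70 (SE 0.15) for Ighv2-2 and 0.71 (SE 0.17) for Ighv5-4. Their limma voom adjusted p-values were 0.0014, 0.000868 and 0.00376. With median-of-ratios size factors all 3 calls were lost, at adjusted p-values of 0.292, 0.160 and 0.160.

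The calls of these V segments depended on the denominator. V joins were 40.4%, 50.2% and 43.9% of V plus D joins in CBE2inv, against 37.0%, 35.7% and 30.6% in WT, without overlap (exact permutation p = 0.1, adjusted p = 0.18). Without CBE2inv replicate 2, whose share was highest, the difference of means was 7.72 percentage points, against 10.4 with it. Counting distinct junctions, the shares were 47.2%, 58.2% and 50.2% in CBE2inv, against 49.9%, 45.8% and 42.9% in WT, which overlapped, and the difference was 5.68 (exact permutation p = 0.2). Reads per distinct D join were 3.04, 3.64 and 2.78 in CBE2inv, against 4.29, 3.44 and 4.62 in the deeper WT libraries. Reads per distinct V join were 2.31, 2.63 and 2.15 in CBE2inv, against 2.53, 2.26 and 2.71 in WT. How far depth moved the shares of distinct junctions was not tested. Within V joins, Ighv5-2 made up 13.3% ± 3.32 in CBE2inv and 10.8% ± 0.864 in WT (SD, n = 3 each), overlapping between the groups (limma voom adjusted p = 0.347). Ighv2-2 and Ighv5-4 did not overlap between the groups within V joins and did not pass (adjusted p = 0.091 and 0.137). With distinct junctions counted once, Ighv5-2, Ighv2-2 and Ighv5-4 passed within V joins (adjusted p = 0.0128, 0.00302 and 0.0128). Groups that do not overlap were found for 29 of 142 V segments within V joins (20.4%).

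Ighv5-1, a pseudogene and the V nearest to D, had 346, 251 and 120 junctions per 100000 in CBE2inv, against 152, 207 and 146 in WT, and did not pass (limma voom adjusted p = 0.403). Beyond Ighv5-4, the log2 differences of Ighv2-3, Ighv5-6, Ighv5-9 and Ighv5-12 were 0.30, 0.35, 0.54 and 0.58, with adjusted p-values of 0.413, 0.436, 0.532 and 0.229. Ighv2-4, between Ighv5-6 and Ighv5-9, averaged 71.4 ± 19.3 per 100000 in CBE2inv and 66.9 ± 12.4 in WT (SD, n = 3 each), with a log2 difference of 0.15 (limma voom adjusted p = 0.894). Among those 10 D-proximal V segments 3 rose, 0 fell and 9 had a log2 difference above 0. Their median was 0.53, beside 0.14 over all 167 tested segments. The exception was Ighv2-6, the last of the 10 and, like Ighv2-4, named here after its values were seen, at 77.0, 69.4 and 69.3 per 100000 in CBE2inv, against 150, 96.6 and 147 in WT (log2 -0.83, adjusted p = 0.344). As a share of V joins, the 10 segments together held 40.3%, 31.5% and 29.5% in CBE2inv, against 24.7%, 29.9% and 28.8% in WT. These ranges overlapped (exact permutation p = 0.2, adjusted p = 0.3).

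**Figure D3:**
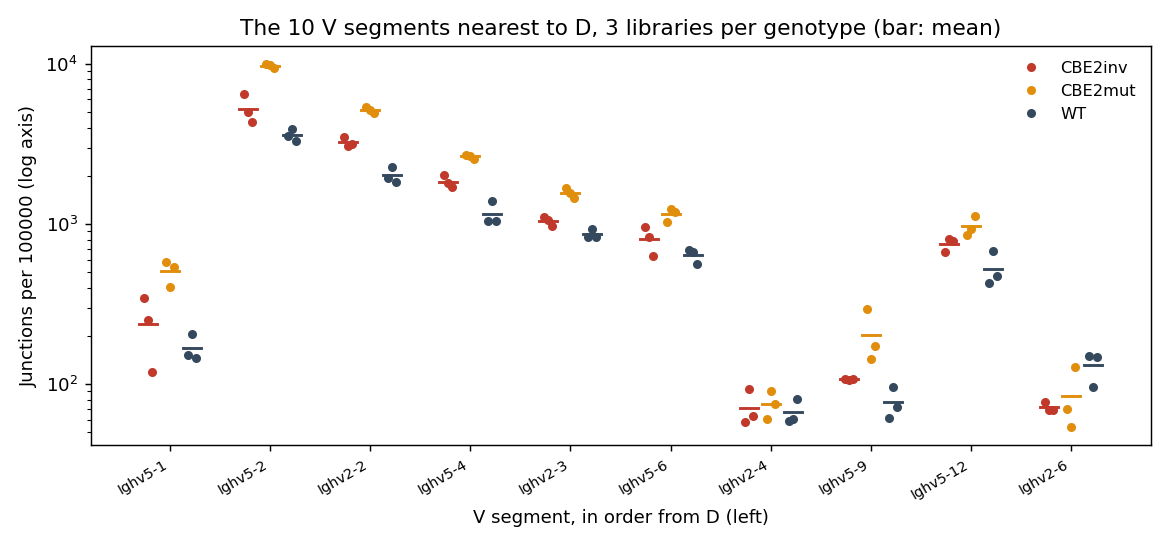
Junctions per 100000 (vertical log axis) for the 10 V segments nearest to D, in their order from D, with 1 point per library and a bar at each group's mean, for CBE2inv, CBE2mut and WT. Ighv5-2 stands at 4352 to 6445 in CBE2inv and 9374 to 9970 in CBE2mut, above 3315 to 3923 in WT.

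The inverted and the mutated element differed at this end of the locus. Ighv5-2 had 9970, 9779 and 9374 junctions per 100000 in CBE2mut, each above the CBE2inv libraries. The log2 difference of CBE2inv over CBE2mut was -0.88 (SE 0.12, limma voom adjusted p = 1.22e-06). Ighv2-2 was lower in CBE2inv than in CBE2mut as well (log2 -0.67, adjusted p = 0.00358), as was Ighv5-1 (log2 -1.14, adjusted p = 0.0253). Ighv5-4 did not pass (log2 -0.51, adjusted p = 0.1). This contrast called 6 of 167 segments (3.59%), 3 lower in CBE2inv (1.8%) and 3 higher (1.8%), and its median over all segments was 0.41. The 3 that were higher, named after their values were seen, are farther V segments: Ighv1-58, Ighv1-81 and the Ighv14-type segment at 115810681. Ighv1-58 had 11.5, 34.7 and 88.2 junctions per 100000 in CBE2inv, against 0 in each CBE2mut library. These were 3, 13 and 14 junctions, from 2, 2 and 5 distinct junctions. They lie near the floor, as 3 counts are 27.0 per 100000 in CBE2mut replicate 2. Without CBE2inv replicate 2 this contrast called 1 segment, and without CBE2mut replicate 1 it called 29. The call of Ighv5-2 was present in each of the 10 alternatives of this contrast, with adjusted p-values up to 0.000236.

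Farther V segments gave a single call against WT. Within V joins 1 of 142 tested segments passed (0.704%), an Ighv3-type segment at 115608445, which fell. It made up 0.996%, 0.847% and 0.700% of V joins in CBE2inv, against 1.84%, 2.16% and 1.96% in WT (log2 -1.20, SE 0.24, limma voom adjusted p = 0.00015). The call was lost with distinct junctions (adjusted p = 0.0778) and without CBE2inv replicate 2 (adjusted p = 0.0603). The Ighv1 family, which fills most of the far part of the locus, had 61 of 67 members tested, 0 called on either scale, and a median log2 difference of 0.05 within V joins. The Ighv5, Ighv2 and Ighv8 families and the other families had medians of 0.25, -0.45, -0.29 and -0.30 within V joins, beside -0.10 over all 142.

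With the V region cut into 3 parts of equal length, the part nearest to D rose, at 23632, 22740 and 22278 junctions per 100000 in CBE2inv, against 18665, 19741 and 17275 in WT. Its log2 difference was 0.30 (SE 0.08, limma adjusted p over 11 zones = 0.00548). Fitted on the CBE2inv and WT libraries alone, this call was lost (adjusted p = 0.0682). The middle and the far part overlapped between the groups, with log2 differences of 0.18 and 0.28 (adjusted p = 0.424 and 0.383). Of the 11 zones of the locus and genome, 7 passed (63.6%), so most zones passed. The part nearest to D was lower in CBE2inv than in CBE2mut (log2 -0.39, limma adjusted p = 0.00417).

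Frame was read in V joins of 144 V segments whose cysteine codon was found. V joins were in frame in 46.5%, 58.1% and 59.7% in CBE2inv, against 51.9%, 49.1% and 49.6% in WT (exact permutation p = 0.4). On V segments other than the nearest 10, 57.6%, 67.4% and 67.1% were in frame in CBE2inv, against 57.5%, 55.9% and 55.7% in WT. CBE2inv replicate 1 lay next to the highest WT library, and the spread among CBE2inv libraries was larger than among WT libraries. Inserted bases at D joins had a median of 3 in every library. D joins in inversional orientation were 0.0896%, 0.200% and 0.122% in CBE2inv, against 0.139%, 0.108% and 0.121% in WT (exact permutation p = 0.8).

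The interval between Ighd1-1 and the first V segment, which holds IGCR1, also carried joins of JH4, at sites that are not annotated segments. Their level was 92.3, 64.0 and 296 junctions per 100000 in CBE2inv, against 307, 486 and 488 in WT, and it fell (log2 -1.78, SE 0.41, limma adjusted p = 0.00201). Fitted on the CBE2inv and WT libraries alone, the call was lost (adjusted p = 0.0682). CBE2inv replicate 3 came close to the lowest WT library. In CBE2inv 84 of the 95 junctions, and in WT 894 of the 965, lay at 6 sites just beyond Ighd1-1.

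At 1029 bp from Ighd1-1, the site with most joins in WT, the level was 57.7, 34.7 and 69.3 per 100000 in CBE2inv, against 152, 233 and 232 in WT. At 368 bp it was 0 in each CBE2inv library, against 6.28, 17.3 and 6.67 in WT. Those WT levels were 5, 10 and 6 junctions, from 8 distinct junctions. They lie near the floor, as 3 counts are 11.5 and 18.9 per 100000 in CBE2inv replicates 1 and 3. Over the CBE2inv group 3 counts are 3.78 per 100000, which is 2.44-fold below the WT group level at 368 bp. That ratio takes each read as independent, which repeated reads are not, so it gives no lower bound on the difference. At 1986 bp it was 0, 0 and 25.2 in CBE2inv, against 32.7, 39.7 and 37.8 in WT. At these 3 sites the groups did not overlap. On the same scale, groups that do not overlap were found for 38 of 167 tested segments (22.8%). At 3176 bp the CBE2inv libraries had 0 junctions, and the WT libraries had 67.9, 121 and 85.6 per 100000, from 98 distinct junctions. With each read taken as independent, a count of 0 among 79347 CBE2inv junctions allows up to 3.78 per 100000 (3 counts over the group). That is 23.4-fold below the level in WT, which was 88.4 over the group. Repeated reads are not independent, so 23.4 overstates the lower bound, and it leaves out the spread between libraries. The groups overlapped at 1504 bp, with 3.85, 2.67 and 0 in CBE2inv, against 3.77, 6.90 and 18.9 in WT. They also overlapped at 3660 bp, with 19.2, 24.0 and 157 in CBE2inv, against 23.9, 39.7 and 64.5 in WT. The site at 3176 bp also had 0 junctions in the CBE2mut libraries and 0 in the libraries with CBE1 and CBE2 both mutated (CBE12mut), which the read names put on the same run as WT. Libraries with CBE1 inverted held 613 junctions there, and those with CBE1 mutated held 185. The 0 of CBE12mut was not particular to this site. CBE12mut libraries also had 0 junctions at 368, 1504 and 1986 bp, and 17 and 14 at 1029 and 3660 bp.

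The sequence around that site is shown because the site had joins only in genotypes whose label leaves CBE2 unchanged. It maps to chr12:114723465-114723564 of mm9, minus strand, and is given 5′ to 3′ with a match to the core of the CTCF motif in capitals.
Join site: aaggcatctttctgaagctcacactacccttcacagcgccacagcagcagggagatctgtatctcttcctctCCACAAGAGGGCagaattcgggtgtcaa
The search used a form of that core in which the variable positions could be any base. It was chosen after the site was seen, and both strands were read. The match starts 51 bases after the joined base and is the only match on either strand in the 90.8 kb between Ighd1-1 and Ighv5-1 in mm9. Of 1174568 windows of 100 bases on chromosome 12, 0.142% hold a match. A single match in 90.8 kb is near the number that this background rate gives, so being the only match does not mark it as CBE2. IGCR1 carries both CBE1 and CBE2, so a search with a single match did not find both. Whether this match is CBE2 is not given in the sources used here, and it is the reference sequence, not that of the CBE2inv allele.

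**Figure D4:**
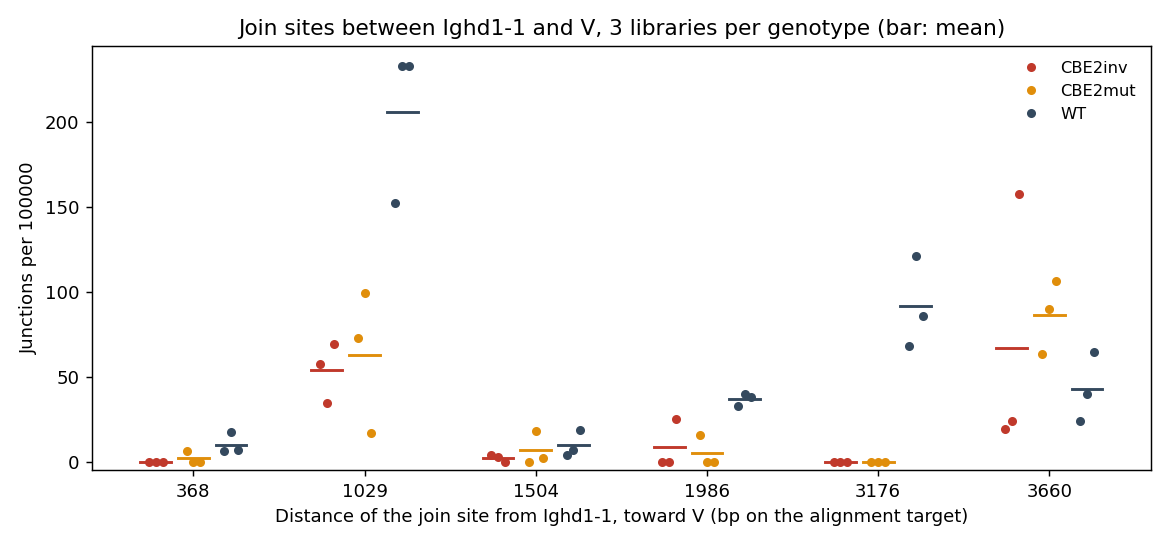
Junctions per 100000 (vertical axis) at 6 join sites between Ighd1-1 and V (horizontal axis, distance from Ighd1-1 in bp), with 1 point per library and a bar at each group's mean, for CBE2inv, CBE2mut and WT. At 3176 bp the CBE2inv and CBE2mut libraries are at 0 and the WT libraries at 67.9 to 121.

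Junctions from JH4 to the other JH segments, in the orientation opposite to a deletion, rose. Their level was 5094, 16097 and 5813 per 100000 in CBE2inv, against 1564, 2029 and 1977 in WT (log2 2.08, SE 0.35, limma adjusted p = 0.000213). The groups did not overlap, and CBE2inv replicate 2 stood far above the other CBE2inv libraries. Per 100 D joins there were 9.13, 38.97 and 11.2 in CBE2inv, against 2.55, 3.26 and 2.95 in WT (exact permutation p = 0.1, adjusted p = 0.18). Without CBE2inv replicate 2 the difference of mean levels was 3598, against 7145 with it. CBE2mut libraries had 4687, 7402 and 9316 per 100000, a range that overlaps that of CBE2inv.

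Repeated reads made up part of this difference. Each distinct junction had 4.76, 13.8 and 4.59 reads in CBE2inv, against 3.36, 3.05 and 3.88 in WT, and the most frequent junction in CBE2inv replicate 2 had 142 reads. Counting distinct junctions, the level was 2943, 4069 and 3217 per 100000 in CBE2inv, against 1582, 1919 and 1928 in WT, with a log2 difference of 0.91 (limma adjusted p = 4.21e-05). JH3 took most of them in CBE2inv replicate 2, with 4144 of 6033 reads. At JH3 the level was 2216, 11057 and 2985 in CBE2inv, against 748, 1054 and 1001 in WT, and at JH2 it was 2474, 4733 and 2368 in CBE2inv, against 639, 802 and 735 in WT.

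These junctions carried D sequence. A run of D bases was found in 60.05%, 62.7% and 57.3% of them in CBE2inv, against 58.8%, 62.1% and 58.5% in WT. Of those runs 98.9% to 99.97% in CBE2inv and 97.7% to 99.5% in WT read opposite to the way D reads in V joins. Ighd1-1 was the D in 5.43%, 5.08% and 2.86% in CBE2inv, against 13.6%, 11.3% and 13.7% in WT, again without overlap. Among distinct junctions it was 8.15%, 6.14% and 5.21% in CBE2inv, against 21.7%, 11.1% and 15.6% in WT. Junctions from JH4 to another JH in the deletional orientation were rare. They had 342, 339 and 712 junctions per 100000 in CBE2inv, against 64.1, 8.63 and 76.7 in WT (log2 3.58, limma adjusted p = 0.000281). They came from 5, 4 and 9 distinct junctions in CBE2inv and 10, 4 and 13 in WT. A single junction at JH1 with 21 bases shared by both sides held 85, 109 and 99 of the reads in CBE2inv, against 14, 1 and 5 in WT. With distinct junctions counted once the call was lost (adjusted p = 0.133). CBE2mut libraries, on the same run as CBE2inv, had 95, 22 and 98 reads of that single junction. In the deletional orientation they had 367, 225 and 270 junctions per 100000, and CBE2inv did not differ from them (limma adjusted p = 0.421).

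**Figure D5:**
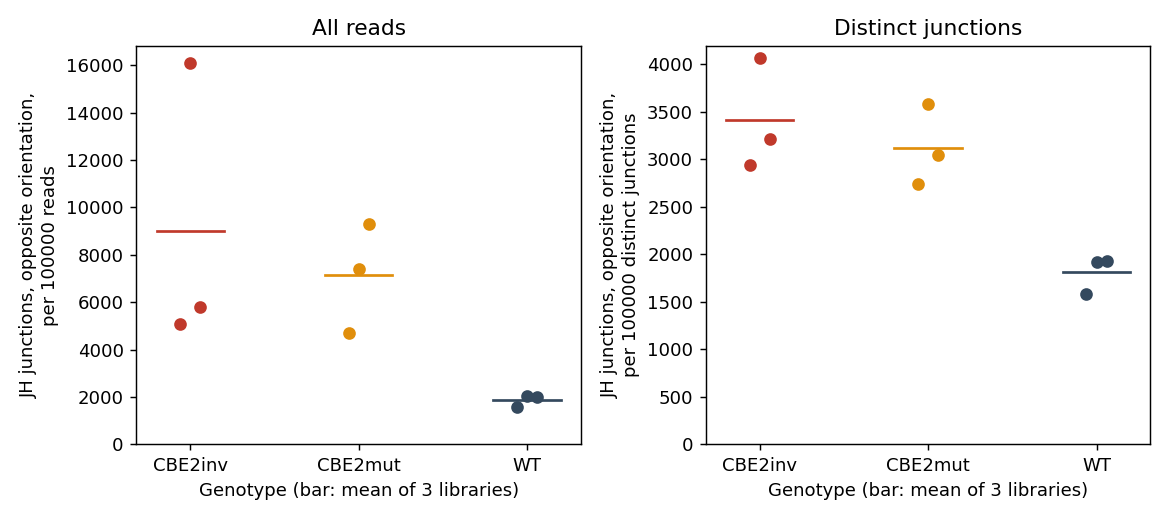
Junctions from JH4 to other JH segments in the orientation opposite to a deletion, shown per 100000 reads (left) and per 100000 distinct junctions (right) on the vertical axes, with 1 point per library and a bar at each group's mean, for CBE2inv, CBE2mut and WT. CBE2inv replicate 2 stands at 16097 reads per 100000, and at 4069 once distinct junctions are counted.

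Junctions in the rest of the genome averaged 119 ± 18.04 per 100000 in CBE2inv and 70.6 ± 12.5 in WT (SD, n = 3 each), and rose (log2 0.75, limma adjusted p = 0.0381). Junctions downstream of JH4 had a level of 0, 58.7 and 6.30 per 100000 in CBE2inv, against 66.6, 38.0 and 73.4 in WT. They were called lower (log2 -2.94, limma adjusted p = 0.0377), although the groups overlapped. The CBE2inv libraries held 0, 22 and 1 of these junctions, and their mean level was 0.365 of that in WT. The log2 difference averages logs of levels plus 1, so the library at 0 weighs heavily in it. Both calls were lost with distinct junctions (adjusted p = 0.107 and 0.0923). Both were also lost without CBE2inv replicate 1 (adjusted p = 0.0966 and 0.178), and without CBE2inv replicate 3, WT replicate 1 or WT replicate 3.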

How the data were processed

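Joins of the JH4 primer were analysed in bone marrow pro-B cells. The authors deposited 1 line per read with other kinds of value than abundances: per the file headers, positions, strands and read sequences of bait and prey. Per the labels, reads were aligned to a 129 Igh sequence joined to mm9 and the enzyme blocking step was left out. Bowtie2 was used, per the submitters' processing notes, and its version is not given in the sources used here.

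Junctions were tabulated here in windows of 100 bp around 150 V and 26 D segments. Segments were found as clusters of at least 50 joins and matched to mm9 with BLAST 2.17.0 (97% identity for a name). In all, 66 V and 18 D segments have no name and are given by type and target position, which is not an mm9 coordinate. A segment was tested when 3 or more libraries held 10 or more of its junctions, with limma 3.58.1 (voom, R 4.3.3) over the 18 bone marrow libraries, with Benjamini-Hochberg adjustment at 0.05. The library size was all junctions, V joins or D joins. Zones were tested with limma on log2 of junctions per 100000 plus 1. Single values were tested by exact permutation. On simulated data, the fit of all junctions recovered 17 of 19 segments changed 2-fold and 17 of 18 changed 4-fold, and called 2 unchanged segments. The simulation used the mean WT shares, the real library sizes and a single dispersion for all segments. It held no run difference, no change in the other genotypes and no repeated reads, so it does not give the recovery in the real data. Each pair of replicates differed by more than counting error (chi-square over its degrees of freedom 4.63 to 12.4 in CBE2inv and WT). Named segments are those at the D end of V, Ighd1-1, Ighd4-1, Ighd3-2, the D between D and V, and each segment called against WT. The members and lists were chosen with earlier results of these data known. Alternatives changed normalization, filter, window, identical reads, distinct junctions, libraries fitted and each replicate.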

Additional observations from a re-analysis of the deposited data

How the results depend on the processing

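Over all junctions, 8 segments were called, against 3 with median-of-ratios size factors, 4 with distinct junctions, 5 with V plus D joins as the library size and 5 to 9 with a library left out (5 without CBE2inv replicate 2). Within V joins the count was 1, against 2 with identical reads counted once, 2 with the replicate block, 5 with distinct junctions, 4 with only the CBE2inv and WT libraries and 0 to 1 with a library left out. Within D joins it was 5, against 4 to 7. Against CBE2mut it was 6, with 10 under median-of-ratios and 1 to 29 with a library left out: 1 and 3 without CBE2inv replicates 2 and 3, and 29 and 2 without CBE2mut replicates 1 and 3. Of the zones 7 were called, against 4 with only the CBE2inv and WT libraries.

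The inversional share of D joins differed by 0.0143 percentage points, but by -0.00448 with a window of 25 bp and by -0.0173 to 0.0380 with a library left out. Other sign changes were of log2 differences near 0. Over all junctions these were the Ighd2-type segment at 114714725 (0.019 with distinct junctions, 0.035 with V plus D joins as library size, -0.21 to 0.041 with a library left out) and the Ighd1-type at 114719358 (-0.014 with median-of-ratios, -0.098 to 0.19). Within V joins these were Ighv5-1 (-0.044 to 0.54), Ighv2-3 (-0.061 to 0.084) and Ighv5-6 (-0.022 with identical reads counted once, -0.068 to 0.19). With distinct junctions the middle and far V parts were at -0.035 and -0.0056. The cause of these changes was not tested. The median log2 difference of all segments was 0.14, and 0.08 with median-of-ratios and 0.26 with V plus D joins as library size.

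Replicate numbers did not pair CBE2inv with WT libraries (correlations of deviations -0.12, -0.12 and -0.38). With the replicate block 9 segments were called over all junctions and 5 within D joins. Depth limits rare segments, and repeated reads are not independent molecules.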
